A study of Mus musculus with 20 samples.

Results

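Bone marrow expressing the mutant splicing factor U2AF1(S34F) was compared with bone marrow expressing U2AF1(WT) under vehicle treatment. The mice were chosen by their labels: 5 vehicle-treated U2AF1(WT) mice (numbered 1, 2, 3, 4 and 5) and 5 vehicle-treated U2AF1(S34F) mice (numbered 1, 3, 5, 7 and 11), which make up 10 of the 20 mice sequenced. The other 10 mice were given sudemycin D6, which binds SF3B1 in the spliceosome, and are used below only to set the same genotype difference beside the one under vehicle. All mice were lethally irradiated congenic recipients of transgenic donor marrow that carried a doxycycline-inducible human U2AF1 transgene together with rtTA, its doxycycline-dependent activator. After more than 6 weeks of engraftment, doxycycline chow (625 ppm) was given for 7 days, and vehicle ((2-hydroxypropyl)-β-cyclodextrin) was infused through a jugular catheter on the last 5 of these days. According to the methods of the study, recipients were F1 of C57BL/6 and 129S4Sv/Jae. Donors and recipients were sex-matched young adults, and the study used mice of both sexes. The strain of the donors is not given in the sources used here, so whether it differed between the genotypes could not be checked. Donor marrow of several mice was pooled for each transplant. The 5 mice of a group are therefore recipients of shared marrow, and p-values measure the spread between recipients. Values are given in the order of the mouse numbers above.

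U2AF1 is the small subunit of the U2 auxiliary factor and contacts the AG dinucleotide that ends an intron, while its partner U2AF2 binds the polypyrimidine tract just upstream. Serine 34 lies in a zinc finger of U2AF1 and is a recurrent site of mutation in myelodysplastic syndromes and acute myeloid leukaemia. The bases next to the AG, above all the base before it, are the ones at which recognition of a 3′ splice site by the mutant protein is known to differ.

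The sequences at which this comparison turns are the 3′ splice sites of cassette exons, which are exons that are either included or skipped. Each is shown 5′ to 3′ on the strand of its gene from the mm9 genome (NCBI build 37), as the last 20 bases of the intron and the first 3 bases of the exon, with the last 3 bases of the intron in capitals. The first 9 sites precede exons that were included less in U2AF1(S34F) marrow, and they comprise 6 of the 8 largest decreases and 3 exons in genes of blood cell growth, splicing and cell division.
Itgb3bp (chr4:99468921-99468943, minus strand): aaattattatttatttcTAGtca
Rbm34 (chr8:129485869-129485891, minus strand): gtgtatattgtttatttTAGaag
Dzip3 (chr16:48945039-48945061, minus strand): ttactgtgttcccactaTAGctc
Apol11b (chr15:77468486-77468508, minus strand): attatttttctgataaaTAGtgg
Pstk (chr7:138517030-138517052, plus strand): tttgttgttgtgttttgTAGcca
Apobec3 (chr15:79729430-79729452, plus strand): gccccctcttccatttcCAGacc
Rbm39 (chr2:156004686-156004708, minus strand): ccatctatctctctttgTAGact
Csf3r (chr4:125703305-125703327, plus strand): gtctcgcttcatcgttaTAGcat
Kif23 (chr9:61781075-61781097, minus strand): ctgccttattccttcggTAGgtg

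The next 8 sites precede exons that were included more in U2AF1(S34F) marrow, and they comprise 6 of the 8 largest increases and the exons of Hnrnph3 and Gnas.
Clk4 (chr11:51082251-51082273, plus strand): tatttctgtctgttcctAAGggg
Clec4b2 (chr6:123150943-123150965, plus strand): atctccttcatcctccaAAGaaa
Slc38a6 (chr12:74411957-74411979, plus strand): gttcttttccctgtctcAAGagc
Med24 (chr11:98579077-98579099, minus strand): cttttttctctccccatAAGcat
Ktn1 (chr14:48324075-48324097, plus strand): tctgttttatcattgtcAAGgct
Aen (chr7:86047096-86047118, plus strand): cccatgtgctctctcttCAGcac
Hnrnph3 (chr10:62481644-62481666, minus strand): tatttgtccttgggttaAAGggt
Gnas (chr2:174162228-174162250, plus strand): tttcaatctctctttaaAAGggg

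Most of the first sites end in TAG and most of the second end in AAG. Over the 8 largest changes in each direction, the ends were TAG in 5 and CAG in 3 of the exons included less, and AAG in 6 and CAG in 2 of the exons included more. The sites shown hold more AAG than the called exons as a whole. Over all 511 called exons included more, 75.5% ended in CAG and 17.8% in AAG, and 78.3% of the 517 included less ended in TAG.

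Total gene counts ranged from 41145892 to 53492246 for U2AF1(WT) and from 49926328 to 62138138 for U2AF1(S34F), and total junction counts had medians of 46796260 and 56739447, so the U2AF1(S34F) libraries were deeper in the median, with ranges that overlapped. Marrow transcripts were present in every library (Mpo at 1470 to 2110 and Ltf at 11600 to 20000 CPM, which are counts scaled to a common library size), B cell transcripts were low (Cd79a at 1.9 to 27.6 CPM), and the liver and heart genes Alb and Myh6 had no counts. The groups also differed in sex-linked transcripts: Xist counts ranged from 54753 to 78640 for U2AF1(WT) and from 2 to 6 for U2AF1(S34F), and the summed counts of 4 Y-linked genes from 0 to 4 and from 10270 to 15034. Genotype and the sex that these transcripts mark cannot be told apart in any difference below. Counts of these transcripts in the sudemycin-treated mice are not given here, and the same may hold there. Only autosomal genes and junctions are described. The U2AF1(WT) mouse 2 had the lowest mean correlation with its own group (0.981, against 0.984 to 0.989 for the other mice), and it lay toward the U2AF1(S34F) values in several gene groups, where its values are given.

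The endogenous gene U2af1 (chromosome 17) stood at 39.1, 36.1, 36.2, 36.8 and 35.1 CPM for U2AF1(WT) and at 52.2, 52.5, 47.1, 55.1 and 49.6 CPM for U2AF1(S34F). The groups did not overlap, and the log2 fold change was 0.48 (SE 0.07) at an FDR of 0.000294 by the quasi-likelihood test of edgeR, with FDR standing for the Benjamini-Hochberg adjusted p throughout. The transgene is human, and whether its reads were counted on the mouse gene was not tested.

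Cassette exons differed in both directions. Of 37546 cassette exon events tested, 1047 (2.79% of those tested) were called at FDR<10% and a change of more than 1% in Ψ, which is the estimated share of a gene's transcripts with the exon. Inclusion was lower in U2AF1(S34F) mice in 529 and higher in 518 of them. The called events lay in 869 genes and 1028 exons, and their median |ΔΨ| was 0.0648 with a largest value of 0.511. The groups did not overlap in 470 called events, and they did not overlap in 685 (1.82%) of all events tested. These counts rest on leaving all variation beyond Poisson to the quasi-likelihood term: with a dispersion estimated by edgeR the count was 0, with 2070 events at an unadjusted p under 0.05, against 4625 in the fit reported here, and limma on Ψ called 211, in which 131 distinct exons were included less and 78 more. Of the 78 single events that met the rule for naming, 4 were called with the estimated dispersion and 32 by limma. Under sudemycin D6, 925 of the 1040 called events that could be tested changed in the same direction (88.9%, against 59.2% of all events tested). All 414 that were called in both comparisons did. The sudemycin-treated mice are not shared with this comparison, but their donor marrow may be. According to the methods of the study, mice of each group were drawn at random for drug or vehicle.

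**Figure D1:**
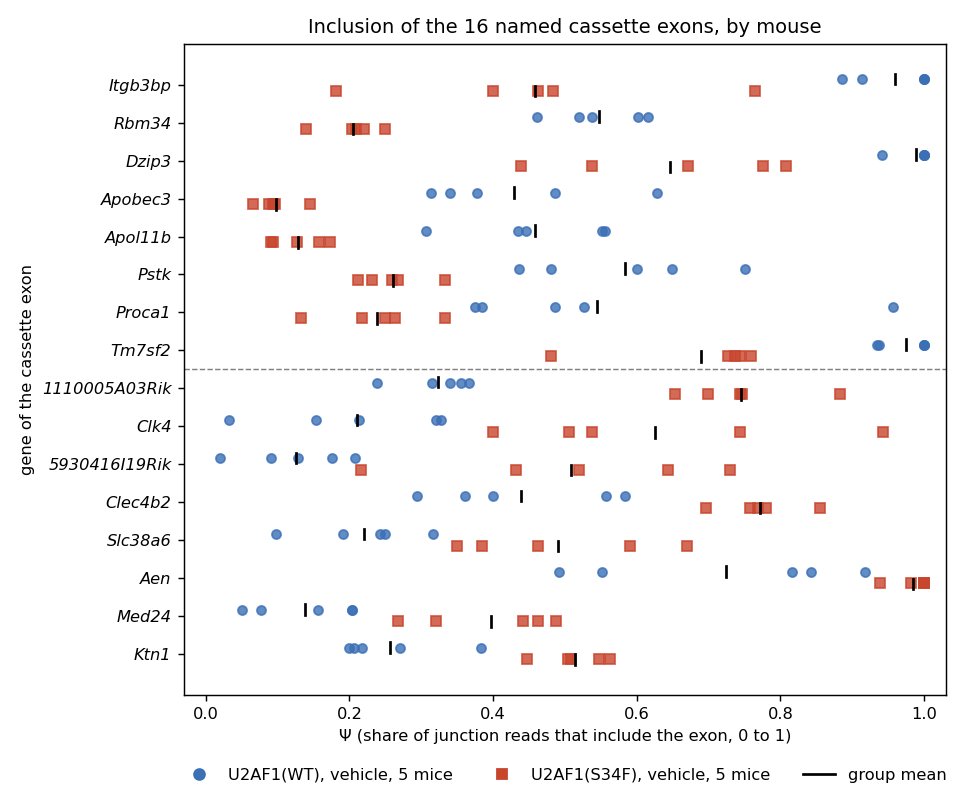
Ψ (0 to 1, share of transcripts with the exon) in each vehicle-treated mouse for the 16 cassette exons with the largest changes, circles for U2AF1(WT) and squares for U2AF1(S34F), with a line at each group mean. The exons above the dashed line were included less and those below it more in U2AF1(S34F) mice, and in each exon the 5 squares lie on one side of the 5 circles.

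The base 3 positions before the exon, the first of the 3 bases in capitals above, differed between the sets of exons. It was thymine in 405 of 517 exons included less in U2AF1(S34F) mice (78.3%, 95% Wilson interval 74.6% to 81.7%), in 31 of 511 exons included more (6.07%, 4.31% to 8.48%) and in 34% of 28769 control exons with FDR>50%. Adenine showed the reverse order, with 2.71%, 17.8% and 6.32%, and cytosine had 17.8%, 75.5% and 59.2%. The intervals cover counting error only, and exons of one gene are not independent. With 1 event kept per gene, thymine made up 80.3% of the exons included less and 6.25% of those included more. At the base before that one, adenine made up 14.9% of exons included less, 24.1% of control exons and 34.6% of exons included more. In the comparison of the genotypes under sudemycin D6, thymine had a share of 76.9% in exons included less and 8.13% in exons included more, against 34.2% of controls.

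The difference was also seen without selecting called exons. Among exons with a mean Ψ between 0.1 and 0.9, the 909 that follow a thymine had a mean Ψ of 0.6650, 0.6535, 0.6665, 0.6607 and 0.6573 in U2AF1(WT) mice, against 0.6075, 0.6166, 0.6200, 0.6095 and 0.5980 in U2AF1(S34F) mice. Every U2AF1(S34F) mouse was below every U2AF1(WT) mouse, with a difference of -0.0503 between the means, and under sudemycin D6 the difference was -0.0505. The 209 exons that follow an adenine had 0.5714, 0.5574, 0.5550, 0.5516 and 0.5411 in U2AF1(WT) mice, against 0.6203, 0.5874, 0.6061, 0.6092 and 0.6045 in U2AF1(S34F) mice, again without overlap but in the other direction, with a difference of 0.0502 (0.0378 under sudemycin D6). The 1583 exons that follow a cytosine rose from a mean of 0.5916 ± 0.00476 (SD, n=5) to 0.6149 ± 0.00471 with no overlap, a difference of 0.0233 (0.015 under sudemycin D6). Of all exons tested, 3.33% of those after a thymine were called lower and 0.255% higher, while 0.6% of those after an adenine were called lower and 3.9% higher.

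**Figure D2:**
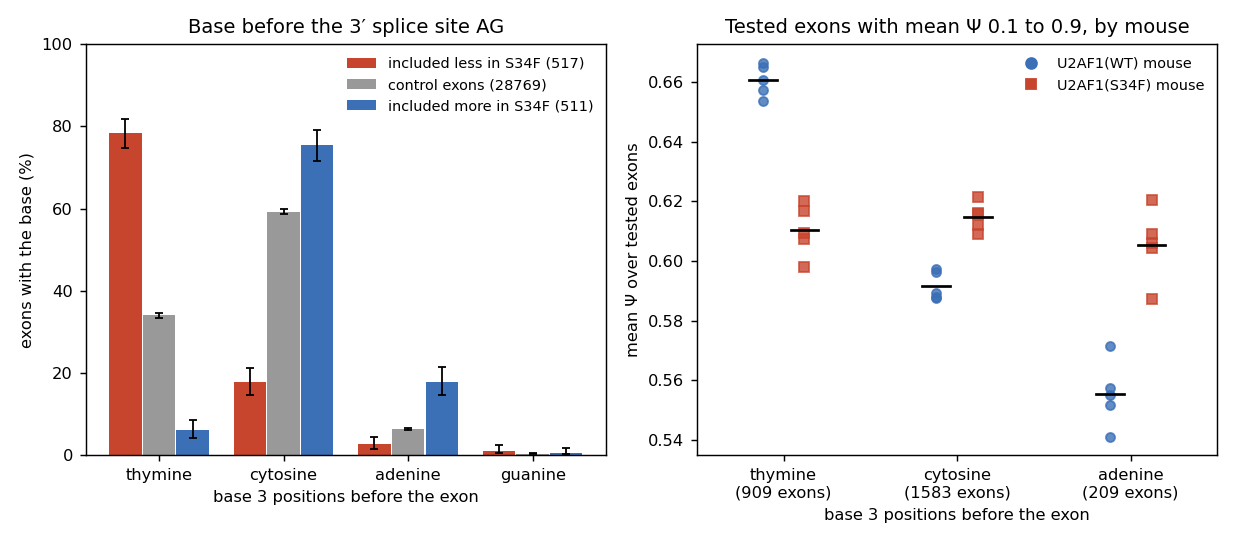
Left, percentage of exons with thymine, cytosine, adenine or guanine 3 positions before the exon, in exons included less (517), control exons (28769) and exons included more (511) in U2AF1(S34F) mice, with 95% Wilson intervals. Right, mean Ψ of exons with a mean Ψ of 0.1 to 0.9 in each mouse by that base: after thymine the U2AF1(S34F) mice lie below, and after cytosine or adenine above, every U2AF1(WT) mouse.

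Of the exons included less and of those included more, the median lengths were 114 and 98 bases, against 116 in control exons, and 53.4% and 38.7% had a length that is a multiple of 3, against 38.6% of controls. Skipping of the exon was annotated for 51.1% and 51.5% of them and for 15% of controls. Most called exons held coding sequence (449 of those included less and 455 of those included more).

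The exon of Itgb3bp, which encodes a kinetochore protein that also binds integrin β3, had the largest decrease of the cassette exons that met the rule for named events. Its Ψ was 1.0, 0.913, 0.886, 1.0 and 1.0 in U2AF1(WT) mice, against 0.463, 0.764, 0.484, 0.182 and 0.4 in U2AF1(S34F) mice (ΔΨ=-0.501, edgeR FDR=0.000289, 11 to 97 reads a mouse). The groups did not overlap, but the U2AF1(S34F) mice were spread from 0.182 to 0.764. The exon of Rbm34, an RNA-binding protein of the nucleolus, had 0.519, 0.461, 0.615, 0.602 and 0.538 against 0.25, 0.209, 0.139, 0.221 and 0.204 (ΔΨ=-0.343, edgeR FDR=2.45e-11), with both groups tight, and it differed by -0.276 under sudemycin D6. Apobec3, which encodes a cytidine deaminase that restricts retroviruses, had an exon with 0.628, 0.377, 0.313, 0.34 and 0.486 against 0.0882, 0.0941, 0.0964, 0.145 and 0.0654 (ΔΨ=-0.331, edgeR FDR=3.24e-15) although its site ends in CAG. Apol11b had a mean Ψ of 0.459 ± 0.102 (SD, n=5) against 0.128 ± 0.0371 and a larger difference under sudemycin D6 (-0.48). Dzip3, a ubiquitin ligase, fell from 0.988 to 0.646 and Pstk, the kinase that acts on seryl-tRNA in selenocysteine synthesis, from 0.583 to 0.261, while Proca1 (0.545 to 0.239) and Tm7sf2 (0.974 to 0.689) completed the 8 largest decreases. The call of Proca1 was lost without the U2AF1(WT) mouse 1 (ΔΨ=-0.204, edgeR FDR=0.325) and that of Pstk without the U2AF1(WT) mouse 4 (FDR=0.129) or the U2AF1(S34F) mouse 11 (FDR=0.139). Under sudemycin D6, the differences of Dzip3 (-0.0887), Pstk (-0.212), Proca1 (-0.121) and Tm7sf2 (-0.0255) kept their sign and were not called.

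Among the increases, Clk4, a kinase that phosphorylates SR proteins, had an exon of 78 bases with Ψ of 0.213, 0.327, 0.321, 0.0323 and 0.154 in U2AF1(WT) mice, against 0.943, 0.537, 0.4, 0.743 and 0.506 in U2AF1(S34F) mice (ΔΨ=0.416, edgeR FDR=0.00737). The groups did not overlap under vehicle, whereas under sudemycin D6 the difference was -0.034 and was not called. Clec4b2, a C-type lectin of myeloid cells, had 0.294, 0.4, 0.584, 0.361 and 0.557 against 0.696, 0.768, 0.78, 0.855 and 0.758 (ΔΨ=0.332, edgeR FDR=3.66e-06). Med24, a Mediator subunit, rose from 0.138 ± 0.0716 to 0.397 ± 0.0962 (SD, n=5) and by 0.196 under sudemycin D6. Ktn1, which encodes kinectin, rose from 0.256 ± 0.0766 to 0.514 ± 0.0455 and by 0.325 under sudemycin D6. The amino acid transporter gene Slc38a6 rose from 0.22 to 0.491, and the p53-induced nuclease gene Aen rose from 0.724 to 0.984. The remaining 2 of the 8 largest increases lay in the clones 1110005A03Rik (0.323 to 0.745) and 5930416I19Rik (0.125 to 0.508).

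Alternative 3′ splice sites showed the same pattern of bases within single genes. Of 2377 pairs of sites tested, 48 were called (2.02%, or 10 pairs with an estimated dispersion), and the site of the longer exon was used less in 35 and more in 13. Without overlap of the groups were 29 of the 48, against 67 (2.82%) of all pairs tested. The site used less in U2AF1(S34F) mice ended in TAG in 29 of the 48 pairs and the site used more in 2. In 27 pairs usage moved from a thymine site to a cytosine or adenine site and in 0 pairs the other way. Of 2042 control pairs, 220 had thymine at the site of the shorter exon and cytosine or adenine at that of the longer. In 419 control pairs the bases were the other way round. These control counts take no account of the direction of usage, so they are not a matched background for the 27 and 0. In Picalm, a clathrin assembly gene, 2 sites lie 15 bases apart, and in Jmjd1c, which encodes a JmjC domain protein, they lie 79 bases apart.
Picalm, longer exon (chr7:97339631-97339653, plus strand): catctgtttgtaactttAAGgct
Picalm, shorter exon (chr7:97339646-97339668, plus strand): ttaaggctttgatgaacTAGgtg
Jmjd1c, longer exon (chr10:66680766-66680788, plus strand): tgttttatgtcatggatTAGgta
Jmjd1c, shorter exon (chr10:66680845-66680867, plus strand): cgttcactctttgttaaAAGgtg

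In both pairs the AAG site gained use. The share of the longer Picalm exon was 0.269, 0.296, 0.26, 0.285 and 0.273 in U2AF1(WT) mice, against 0.433, 0.434, 0.397, 0.388 and 0.453 in U2AF1(S34F) mice (edgeR FDR=4.16e-12), with no overlap and 1356 to 2326 reads a mouse. The share of the longer Jmjd1c exon fell from 0.808 ± 0.0751 (SD, n=5) to 0.537 ± 0.0713 (edgeR FDR=0.000261), and under sudemycin D6 it differed by -0.278. The largest difference of this type was in Itgb2l, a neutrophil integrin subunit, where use of the longer exon was 0.872, 0.826, 0.711, 0.763 and 0.67 against 0.315, 0.249, 0.193, 0.326 and 0.192 (edgeR FDR=0.00301), and it was -0.586 under sudemycin D6. Here the site that lost use ends in CAG, and the annotated site that gained use ends in CGG in the reference genome, which is not an AG. Mier1 fell from 0.69 to 0.193 on 16 to 36 reads a mouse, with U2AF1(WT) values from 0.312 to 1.0, and differed by 0.0226 under sudemycin D6. Arfgap1, a GTPase-activating protein of the Golgi, rose from 0.156 to 0.43 and by 0.317 under sudemycin D6.

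At alternative 5′ splice sites, which U2AF1 does not contact, 12 of 1312 pairs tested were called (0.915%, or 1 with an estimated dispersion), 9 with less and 3 with more use of the site of the longer exon, among them Tmem209 (0.977 to 0.748) and Pcf11, a transcript cleavage factor (0.442 to 0.281). Without overlap were 7 of the 12, against 27 (2.06%) of all pairs tested. The number called was 6 without the U2AF1(WT) mouse 4 or the U2AF1(S34F) mouse 11 and 7 without the U2AF1(S34F) mouse 3, and the call of Pcf11 was lost without the U2AF1(WT) mouse 1 (edgeR FDR=0.267) or the U2AF1(S34F) mouse 3 (FDR=0.127) or 11 (FDR=0.133). Mutually exclusive exons had 38 calls among 549 pairs (6.92%, or 8 with an estimated dispersion), and 17 without the U2AF1(S34F) mouse 11. Without overlap were 14 of the 38, against 21 (3.83%) of all pairs tested. The exon used less followed a thymine in 22 of the 38 and the exon used more in 6. In Naa35, a subunit of an N-terminal acetyltransferase, the first exon (TAG) fell from 0.499 ± 0.191 (SD, n=5) to 0.2 ± 0.063 against the second (CAG). The transcription factor gene Ikzf1, which encodes Ikaros, had a pair of such exons at 0.443, 0.489, 0.461, 0.434 and 0.457 against 0.514, 0.498, 0.52, 0.52 and 0.522, a small difference without overlap (edgeR FDR=0.0301) that was lost without the U2AF1(S34F) mouse 11 (FDR=0.119).

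Several genes that encode splicing regulators had a called event. A called event of any type was found in 926 of 9109 genes with a tested event (10.2%), in 8 of 18 SR and Tra2 splicing factors (44.4%), in 7 of 22 hnRNP proteins (31.8%) and in 3 of 9 genes of 3′ splice site recognition. It was found in 0 of 11 genes of the SF3 complexes, 0 of 21 core snRNP protein genes and 0 of 66 ribosomal protein genes. Rbm39, a splicing factor with U2AF2-like RNA-binding domains, had an exon of 73 bases with Ψ of 0.571, 0.426, 0.559, 0.555 and 0.481 against 0.32, 0.321, 0.336, 0.274 and 0.286 (edgeR FDR=0.00128, 1111 to 3436 reads a mouse), with a nearly equal difference under sudemycin D6 (-0.208). Ptbp1, the polypyrimidine tract-binding protein, had 0.355, 0.358, 0.373, 0.388 and 0.36 against 0.276, 0.294, 0.286, 0.286 and 0.255 (edgeR FDR=1.63e-05). In both genes all U2AF1(S34F) mice lay below all U2AF1(WT) mice, and both exons follow a TAG. Hnrnph3 rose from 0.359 to 0.513, and Srsf11 fell from 0.948 to 0.749, the latter with overlap of the groups and with its call lost without the U2AF1(S34F) mouse 1 (edgeR FDR=0.119).

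Genes of neutrophils, cell division, the p53 response and myeloid neoplasms also held called events, while 0 of 15 secondary granule genes and 1 of 23 DNA replication genes (4.35%) did. They were found in 7 of 20 mature neutrophil genes (35.0%), 6 of 24 mitosis genes (25.0%), 4 of 14 p53 response genes (28.6%), 7 of 28 genes mutated in myeloid neoplasms (25.0%) and 5 of 12 genes named in earlier work on human cells with this mutation (41.7%). Csf3r, the receptor for granulocyte colony-stimulating factor, had an exon of 99 bases of untranslated sequence with Ψ of 0.903, 0.893, 0.858, 0.892 and 0.913 against 0.763, 0.78, 0.801, 0.77 and 0.768 (edgeR FDR=2.44e-07). The groups were narrow and did not overlap, and under sudemycin D6 the difference was smaller (-0.0385) and was not called. Kif23, a kinesin of the midbody, had 2 exons included less, with means of 0.458 and 0.289 for the first and of 0.447 and 0.316 for the second. Gnas, which encodes the stimulatory G protein α subunit, had 0.612, 0.645, 0.58, 0.538 and 0.597 against 0.702, 0.699, 0.71, 0.682 and 0.71 (edgeR FDR=7.05e-08). Fn1, which encodes fibronectin, rose from 0.0926 ± 0.0132 (SD, n=5) to 0.161 ± 0.0124 at an exon of 270 bases (edgeR FDR=1.5e-12), while its total RNA fell. Cbl, a ubiquitin ligase that limits kinase signalling, fell from 0.918 to 0.838, and Bank1, a B cell scaffold protein, rose from 0.82 to 0.949. Pecam1, an adhesion molecule of platelets and endothelium, had an exon of 57 bases that fell from 0.986 to 0.756 and one of 23 bases that rose from 0.519 to 0.741, both without overlap. Mdm2, the ubiquitin ligase of p53, fell from 0.586 to 0.444, and Nf1, a negative regulator of Ras, from 0.437 to 0.275, with overlap in both. The call of Nf1 was lost without any of 5 mice, among them the U2AF1(S34F) mouse 5 (edgeR FDR=0.293).

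Gene expression differed widely, with genes in both directions. Of 14265 autosomal genes tested, 5627 were called at FDR<10% (39.4%), 2783 higher (19.5%) and 2844 lower (19.9%) in U2AF1(S34F) mice, with a median |log2 fold change| of 0.45 among them. The groups did not overlap in 2782 genes tested (19.5%). In bulk marrow, fewer cells of a type and less RNA per cell cannot be told apart. Differences of at least 2-fold were found in 736 called genes, of which 533 were lower and 203 higher. Under sudemycin D6, 5236 of the 5553 called genes that were tested there changed in the same direction (94.3%, against 79.5% of all genes), and 3485 of 3501 genes called in both did. As for splicing, donor marrow may be shared between the 2 comparisons. With these shares of called genes as background, a list is described below by its calls and its median log2 fold change, which was 0.00 over all genes tested.

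The differences followed the base composition of genes. From the tenth of genes with the lowest GC content (median 40.1%) to the tenth with the highest (59.3%), the median log2 fold change went from 0.27 to -0.23, and under sudemycin D6 from 0.24 to -0.32. With GC content and length entered as offsets, an alternative chosen after seeing the data, 4790 genes were called (33.6%), and 3582 of the 5627 calls (63.7%) were kept in the same direction. These calls comprised 2712 genes higher and 2078 lower. The counts with the offsets are given where they move a list's calls by over 1.5 times or change which direction holds more of them.

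**Figure D3:**
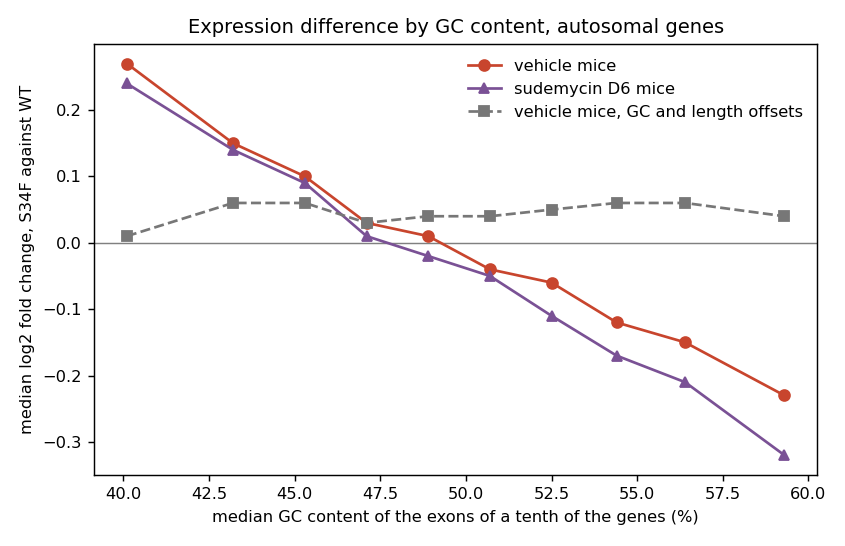
Median log2 fold change (U2AF1(S34F) over U2AF1(WT)) of autosomal genes in 10 groups of equal size ordered by GC content, under vehicle, under sudemycin D6, and under vehicle with GC content and length as offsets. The medians under vehicle go from 0.27 to -0.23, and with the offsets they lie between 0.01 and 0.06.

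Immediate-early genes, which are induced within minutes of a stimulus and encode mostly transcription factors and their feedback regulators, were the list with the lowest median. All 22 tested fell in U2AF1(S34F) mice and 0 rose, with a median log2 fold change of -1.67 (-1.61 with GC and length offsets), and 20 were called lower under sudemycin D6 with a median of -1.31. The count was 22 without any one of the 10 mice. Fos had 1150, 539, 1110, 1200 and 969 CPM in U2AF1(WT) mice, against 316, 199, 158, 130 and 194 CPM in U2AF1(S34F) mice (log2 fold change -2.32, edgeR FDR=0.000245). Fosb, which also encodes a subunit of AP-1, had 90.2, 43.0, 89.5, 93.7 and 61.5 against 10.4, 8.1, 5.7, 5.06 and 6.32 CPM (-3.40, edgeR FDR=3.12e-05). Egr1, a zinc finger transcription factor, had 171, 65.6, 160, 234 and 177 against 29.0, 24.8, 30.5, 13.8 and 34 CPM (-2.61, edgeR FDR=0.000843). In these genes the groups did not overlap and the U2AF1(WT) mouse 2 was the lowest of its group. Nr4a1 (-2.86), Klf2 (-2.38), Nr4a2 (-2.30), Dusp1 (-2.15), Egr3 (-2.12) and Jun (-2.03) also fell, and Myc, at -0.55, was the one gene of the list whose groups overlapped.

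Atf3, a stress-induced transcription factor, had 99.1, 61.2, 59.7, 60.4 and 67.9 CPM in U2AF1(WT) mice, against 6.15, 4.72, 5.64, 3.16 and 4.29 CPM in U2AF1(S34F) mice (log2 fold change -3.85, edgeR FDR=4.43e-07). Every U2AF1(WT) mouse lay above every U2AF1(S34F) mouse by a wide margin. Under sudemycin D6 the difference was -1.46, and Atf3 was the one gene of 14815 called for an interaction of genotype and treatment (interaction 2.38 on the log2 scale, edgeR FDR=0.000994, with 1106 genes at an unadjusted p under 0.05).

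Genes of inflammatory cytokines and NF-κB signalling were lower as well. Of 18 tested, 14 fell and 0 rose, with a median log2 fold change of -1.26, and 12 fell under sudemycin D6 with a median of -1.0. The chemokine gene Cxcl2 had 168, 188, 136, 80.4 and 76.7 CPM in U2AF1(WT) mice, against 24.8, 5.13, 5.17, 2.65 and 5.27 CPM in U2AF1(S34F) mice (-3.92, edgeR FDR=0.00316). Osm, which encodes the cytokine oncostatin M, had 449, 224, 347, 453 and 391 against 108, 55.0, 54.9, 45.3 and 51.9 CPM (-2.57, edgeR FDR=0.000173). In both genes the U2AF1(S34F) mouse 1 was the highest of its group and still below every U2AF1(WT) mouse. Ccl3 (-2.26), Nfkbiz (-1.87), the NF-κB inhibitor gene Tnfaip3 (-1.64), the inflammasome gene Nlrp3 (-1.35) and Il1b (-1.18) fell without overlap. Tnf fell by 0.32 on the log2 scale with overlap, and Il1a (0.40), Il6 (-0.27), Cxcl10 (0.71) and Icam1 (-0.20) were not called.

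**Figure D4:**
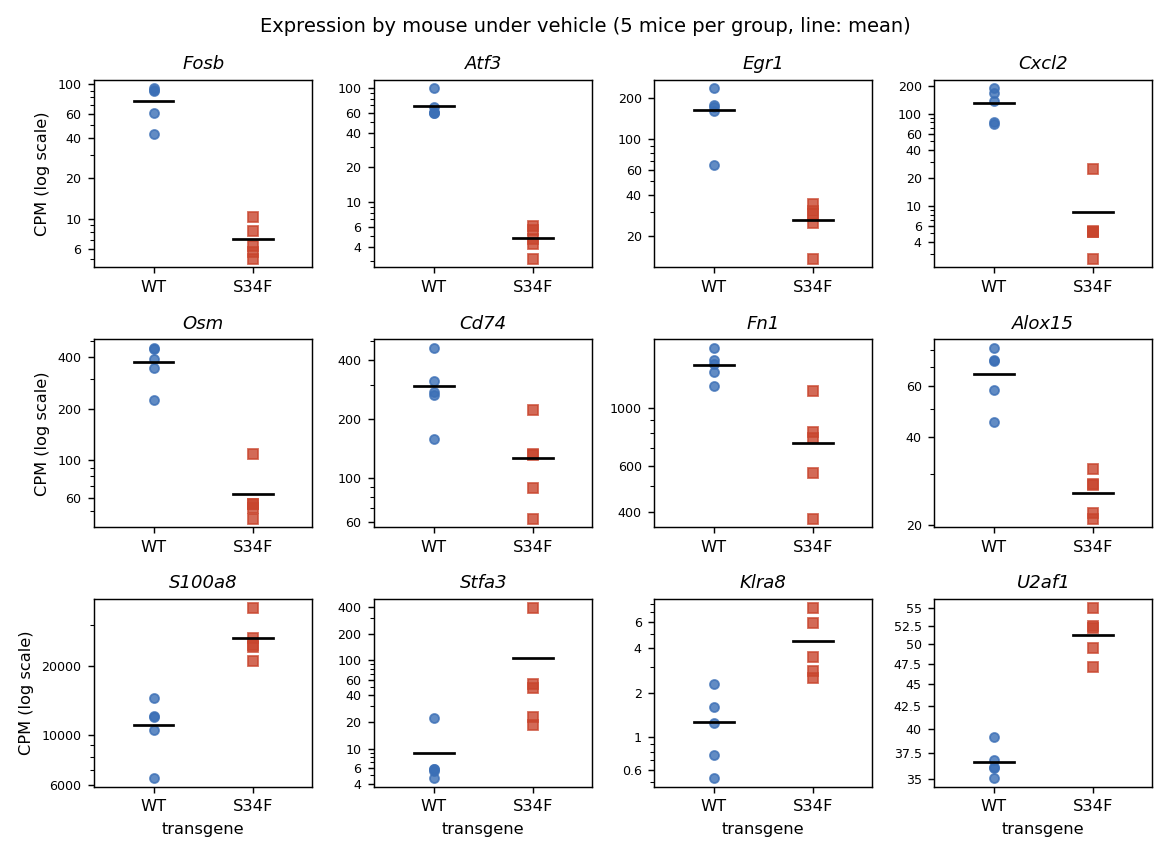
CPM (log scale) in each vehicle-treated mouse for 12 genes named in the text, circles for U2AF1(WT) and squares for U2AF1(S34F), with a line at each group mean. Fosb, Atf3, Egr1, Cxcl2, Osm, Fn1 and Alox15 are lower in all 5 U2AF1(S34F) mice, S100a8, Klra8 and U2af1 are higher in all 5, and the groups overlap in Cd74 and Stfa3.

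Lists of stress and cell death genes were divided. Of 22 genes of the integrated stress and unfolded protein responses, 10 fell and 2 rose (median -0.18, and -0.07 with offsets), among them Ppp1r15a, a phosphatase subunit that reverses eIF2α phosphorylation, and the transcription factor gene Atf4, with 183 to 285 against 116 to 157 CPM (-0.90, edgeR FDR=0.000256). Of 16 genes of the BCL2 family, 6 fell and 1 rose (median -0.23): Pmaip1, which encodes NOXA, fell by 2.04 on the log2 scale, Bmf by 0.97, Bcl2l11, which encodes BIM, by 0.82 and Mcl1 by 0.67, so that promoters and an inhibitor of cell death fell together. Of 19 p53 response genes, 5 rose and 6 fell (median -0.03), with Cdkn1a, which encodes the cell cycle inhibitor p21, at -1.01. Of 17 heat shock chaperones, 4 rose and 7 fell (median 0.08), or 1 and 6 with offsets, and 8 rose without the U2AF1(WT) mouse 2 and 2 without mouse 3. Hspa1a and Hspa1b, near-identical copies between which reads may be split, had log2 fold changes of -3.65 and -3.27. Of 17 circadian clock genes, 9 fell and 0 rose (median -0.37, and -0.20 with offsets), led by Per1 with 82.7, 51.1, 117, 133 and 63.3 against 16.2, 11.6, 13.1, 10.9 and 15.7 CPM (-2.72, edgeR FDR=0.000126). Per1 is also induced by glucocorticoids, and 6 of 13 glucocorticoid-responsive genes fell and 1 rose, among them Dusp1, Per1 and Ddit4 (-1.25).

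Myeloid genes differed by stage. Primary granule genes of promyelocytes rose in 6 of 9 cases with 0 lower (median 0.40), among them Cst7 (0.51), Gfi1 (0.41) and Prtn3 (0.40), while the most abundant, Mpo (0.18) and Elane (-0.07), were not called. Secondary granule and late neutrophil genes rose in 9 of 17 cases with 0 lower (median 0.34), but in 5 and with a median of 0.14 with GC and length offsets. S100a8, a subunit of calprotectin, had 10500, 12100, 11900, 6440 and 14400 CPM in U2AF1(WT) mice, against 24500, 21000, 24100, 35800 and 26500 CPM in U2AF1(S34F) mice (1.26, edgeR FDR=0.000735, 0.97 with offsets). Its partner S100a9 rose by 0.79 and Cebpe, the transcription factor of granule formation, by 0.59, without overlap. The abundant granule genes Ltf (0.22), Ngp (0.06) and Lcn2 (-0.01) were not called. Under sudemycin D6, 4 primary granule genes rose and 1 fell (median 0.22), and 3 genes of the secondary granule list rose and 0 fell (median 0.1).

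Of 25 mature neutrophil genes, 7 rose and 6 fell (median -0.01), or 7 and 8 with offsets. The receptor genes Trem1, with 436, 306, 392, 334 and 348 against 152, 120, 132, 166 and 138 CPM (-1.36, edgeR FDR=4.88e-06), and Clec4e (-1.29) fell, Fpr1 rose by 0.52, and Cxcr2 (0.01) and Itgam (-0.10) were not called. The stefin genes Stfa3, Stfa2, BC100530 and Stfa2l1 had log2 fold changes between 1.82 and 3.59, but Stfa1 had -2.65, and reads of these similar genes may be split between copies. Single mice stood apart in them: Stfa3 had 391 CPM in the U2AF1(S34F) mouse 7 and 18.5 to 54.4 in the other 4, against 22.1 in the U2AF1(WT) mouse 2 and 4.61 to 5.85 in the other 4. The call of Stfa2 was lost without the U2AF1(WT) mouse 1, 3 or 4 (edgeR FDR=0.106, 0.108 and 0.105) and that of Stfa1 without any of 7 mice, among them the U2AF1(WT) mouse 2 (FDR=0.162). Under sudemycin D6 the differences of Stfa3 (0.59), Stfa2 (0.53) and BC100530 (0.59) were not called, and of the 25 genes 0 rose and 7 fell (median -0.12).

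Monocyte genes fell in 11 of 19 cases with 0 higher and a median log2 fold change of -0.58. Csf1r, the receptor for macrophage colony-stimulating factor, had 358, 401, 305, 371 and 336 CPM in U2AF1(WT) mice, against 205, 185, 253, 147 and 190 CPM in U2AF1(S34F) mice (-0.85, edgeR FDR=0.000422). Cx3cr1 (-0.95), Ace (-1.57) and Nr4a1, which mark non-classical monocytes, and Cd14 (-1.0) fell without overlap. Nr4a1 and Klf4 of this list are also members of the immediate-early list above. Fn1 had 1530, 1700, 1370, 1210 and 1470 against 806, 766, 1160, 376 and 564 CPM (-0.99, edgeR FDR=0.0105). Ly6c2 (-0.15) and Ccr2 (0.34), markers of classical monocytes, and their regulator Irf8 (-0.16) were not called. Under sudemycin D6, 4 of the list rose and 5 fell (median 0.05), and Fn1 (0.35) and Cx3cr1 (-0.05) were not called there, though the interaction of genotype and treatment was called for neither gene. Among macrophage and iron recycling genes 4 rose and 2 fell of 18 (median 0.12), with Vcam1 at 0.71 and Emr1, which encodes F4/80, at -0.52, and without the U2AF1(WT) mouse 5 it was 1 and 2.

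Genes of eosinophils, basophils and mast cells fell in 10 of 19 cases with 0 higher (median -0.37), and in 6 without the U2AF1(WT) mouse 3 or the U2AF1(S34F) mouse 5 or 11. Alox15, the lipoxygenase of eosinophils, had 73.1, 45.0, 81.2, 74.1 and 58.1 CPM against 27.7, 31.1, 27.4, 21.9 and 21.0 (-1.36, edgeR FDR=0.000126), with no overlap and with -1.34 under sudemycin D6. Gata2 (-1.19) and Ear1 (-0.73) fell, while the granule protein genes Prg2 (-0.22) and Epx (-0.30) were not called.

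In lists of lymphoid and antigen-presenting cells, single mice stood apart. MHC class II genes fell in 7 of 10 cases with 0 higher (median -0.70), and in 8 with a median of -1.13 under sudemycin D6. Cd74, the invariant chain, had 277, 158, 314, 462 and 266 CPM in U2AF1(WT) mice, against 133, 222, 131, 62.2 and 89.1 CPM in U2AF1(S34F) mice (-1.21, edgeR FDR=0.0344). The U2AF1(WT) mouse 2 lay among the U2AF1(S34F) values and the U2AF1(S34F) mouse 3 among the U2AF1(WT) values, and 1 gene of this list, H2-DMa, had groups without overlap. Of 19 pro-B and pre-B cell genes, 2 rose and 3 fell (median -0.73), with Foxo1 at -1.29 and Lef1 at -1.38, and without the U2AF1(S34F) mouse 3 it was 2 and 11. Of 19 mature B cell genes, 1 rose and 3 fell (median -0.44), and without the U2AF1(WT) mouse 4 the calls numbered 0 while without the U2AF1(S34F) mouse 3 it was 7, all lower. The mean levels of the 2 B cell lists in the U2AF1(WT) mouse 2 were -0.31 and -0.63 on the centred log2 scale, below the 0.36 to 0.57 of the other 4 U2AF1(WT) mice. T cell genes fell in 4 of 18 cases with 0 higher (median -0.28), and in 7 without the U2AF1(S34F) mouse 3, with Cd3e at -1.76 (1.39 to 2.28 against 0.339 to 0.690 CPM).

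Natural killer (NK) cell genes rose in 8 of 17 cases with 0 lower (median 0.46), and in 5 with GC and length offsets. Klra8, a Ly49 receptor, had 2.28, 0.531, 1.6, 0.758 and 1.25 CPM in U2AF1(WT) mice, against 5.89, 7.49, 3.47, 2.82 and 2.52 CPM in U2AF1(S34F) mice (1.76, edgeR FDR=0.0073), and Klri2 rose by 1.66. In both genes the groups did not overlap. Klrb1c (1.19) and Ncr1 (0.96) rose with overlap, the call of Ncr1 being lost without any of 4 mice (edgeR FDR up to 0.116), and the effector genes Gzma (0.34), Gzmb (-0.20) and Prf1 (0.46) were not called. Klr genes are polymorphic and similar to each other, so that reads may be split between copies. Under sudemycin D6, 2 rose and 2 fell (median 0.02).

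Few erythroid genes were called. Early erythroid genes had 0 higher and 1 lower of 17 (Zfpm1, -0.92), with 4 lower without the U2AF1(S34F) mouse 3, and globin and late erythroid genes 1 higher and 2 lower of 19 (median -0.33), which became 1 and 9 without the same mouse and 2 and 1 with GC and length offsets. Under sudemycin D6, 10 of each list were lower, with medians of -0.96 and -0.56. Of 22 megakaryocyte and platelet genes, 3 rose and 5 fell (median -0.08). Thbs1, which encodes thrombospondin, had 807, 304, 694, 463 and 521 against 188, 202, 106, 70.0 and 88.9 CPM (-2.09, edgeR FDR=0.00293), while Clec1b, a platelet receptor, rose from 2.89 to 5.34 CPM to 7.11 to 14.7 CPM (1.29, edgeR FDR=0.000731). Of 24 stem and progenitor cell genes, 6 rose and 2 fell (median 0.13), with Cd34 at 0.49 and Gata2 at -1.19, the largest difference of the list.

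Interferon-stimulated genes rose in 12 of 31 cases and 1 fell (median 0.27), but 6 or 7 rose without the U2AF1(WT) mouse 3, 4 or 5. Gbp2, a guanylate-binding protein, had 13.8, 33.1, 16.3, 16.1 and 17.9 CPM against 25.2, 14.1, 162, 89.0 and 43.5 (1.78, edgeR FDR=0.0672), where the U2AF1(S34F) mouse 5 was the highest, and its call was lost without any of 6 mice, that mouse among them (FDR=0.147). Ifit2 (0.68) and Ifi47 (0.75) rose without overlap and Ifi44 fell (-1.64), while Isg15 (0.06) and Mx1 (0.23) were not called. Under sudemycin D6, 2 rose and 3 fell, with a median of -0.23.

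Genes of cell division rose together by small amounts. DNA replication genes rose in 13 of 23 cases with 0 lower (median 0.27), and mitosis genes in 14 of 24 with 0 lower (median 0.30). Ccne2, cyclin E2, had 17.8, 28.0, 17.7, 16.3 and 22.2 CPM against 44.3, 37.9, 33.8, 41.4 and 39.5 (0.95, edgeR FDR=0.000377), and Top2a, the topoisomerase of dividing cells, had 595, 757, 557, 542 and 682 against 910, 883, 862, 1030 and 910 CPM (0.55, edgeR FDR=0.00186). Both were without overlap, with the U2AF1(WT) mouse 2 nearest to the U2AF1(S34F) mice. The groups did not overlap in 6 of the 23 DNA replication and 4 of the 24 mitosis genes, against 19.5% of all genes tested. Over the 2 lists, the U2AF1(WT) mouse 2 had mean levels of 0.18 and 0.24 on the centred log2 scale. These lay within the ranges of the U2AF1(S34F) mice (0.12 to 0.22 and 0.02 to 0.29). The mitosis count was 23 without the U2AF1(WT) mouse 2 and 8 or 9 without the U2AF1(WT) mouse 1, 3 or 4 or the U2AF1(S34F) mouse 7 or 11, and that of DNA replication was 20 without the U2AF1(WT) mouse 2. Under sudemycin D6, 15 and 21 rose, with medians of 0.25 and 0.32.

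Genes of the ribosome, respiratory chain and proteasome rose in most cases. Of 74 cytosolic ribosomal protein genes, 59 rose and 1 fell (median 0.37), of 75 respiratory chain genes 48 rose and 0 fell (0.29), and of 33 constitutive proteasome genes 24 rose and 0 fell (0.33, or 17 and 0.23 with offsets). Under sudemycin D6 the medians were 0.34, 0.30 and 0.30. Rps3a had 243, 331, 286, 291 and 311 CPM in U2AF1(WT) mice, against 476, 500, 492, 503 and 499 CPM in U2AF1(S34F) mice (0.76, edgeR FDR=8.04e-05), and Atp5e, a subunit of ATP synthase, had 29.4, 38.7, 27.7, 25.7 and 31.1 against 62.8, 69.2, 72.8, 70.4 and 68.0 CPM (1.17, edgeR FDR=6.99e-06). Over the whole ribosomal list, however, the U2AF1(WT) mouse 2 had a mean level (0.22 on the centred log2 scale) equal to the highest U2AF1(S34F) mice, and the other 4 U2AF1(WT) mice lay between -0.43 and -0.18. The same mouse had 0.18 in the respiratory chain list and 0.21 in the proteasome list. Both values lay within the ranges of the U2AF1(S34F) mice (0.1 to 0.2 and 0.06 to 0.22). Ribosomal protein genes have many processed copies among which reads may be split. Replication-dependent histone genes, which also share sequence, rose in 28 and fell in 8 of 65 cases (median 0.24), and 17 rose and 7 to 10 fell without the U2AF1(WT) mouse 1, 3 or 4, while 9 rose and 13 fell under sudemycin D6.

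**Figure D5:**
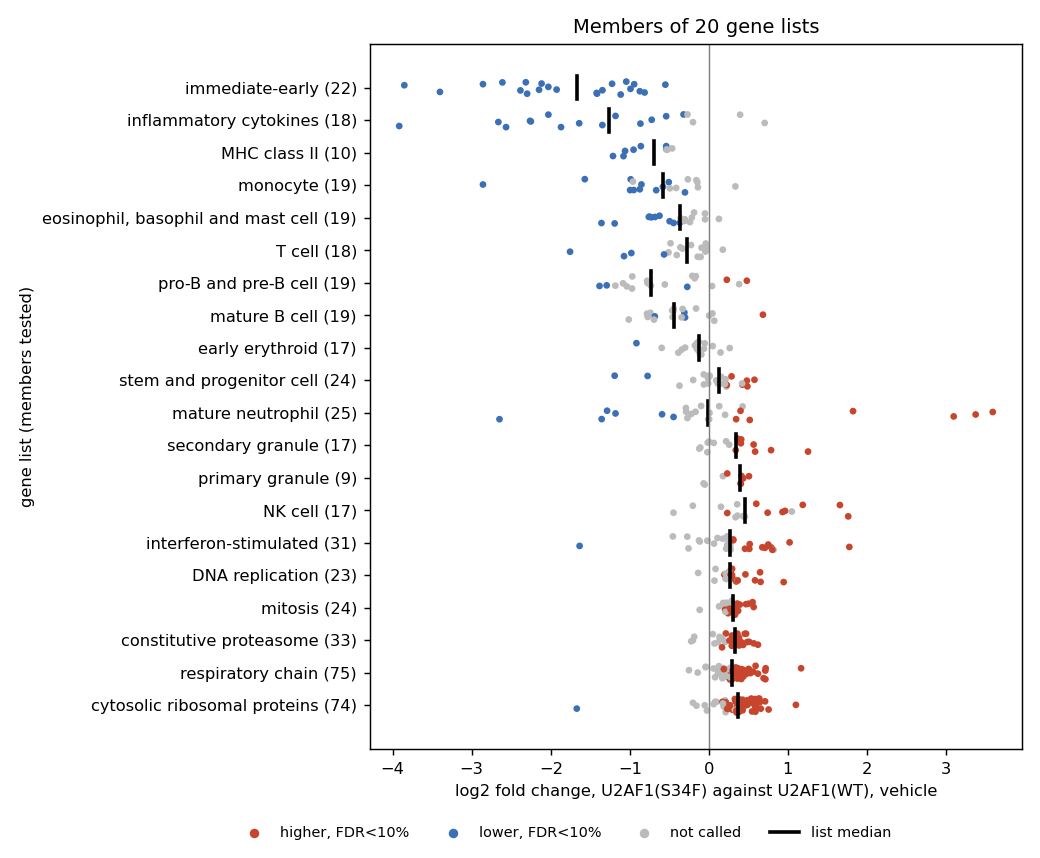
Log2 fold change (U2AF1(S34F) over U2AF1(WT), vehicle) of each tested gene in 20 lists, coloured by its call at FDR<10%, with a line at the median of each list. The lowest median is that of the immediate-early genes (-1.67), and all of their 22 genes are called lower.

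Genes of the splicing machinery changed in both directions. Sf1, the protein that binds the branch point together with U2AF2, had 225, 177, 226, 224 and 201 CPM against 142, 116, 141, 126 and 137 (-0.67, edgeR FDR=0.000222), and U2af2 fell by 0.35 on the log2 scale, both without overlap and both also lower under sudemycin D6 (-0.36 and -0.38). Dek rose by 0.46 but was at 0.13 and not called with GC and length offsets. U2af1l4 (0.11), Puf60 (0.08) and Zrsr1 (0.19) were not called, and with the offsets U2af1l4 (0.27) and Puf60 (0.23) were. Of 28 core snRNP protein genes, 10 rose and 0 fell (median 0.14), with Lsm5 at 0.99 and Snrpe at 0.56. Of 18 SR and Tra2 factors, 3 rose and 4 fell (median 0.00), and of 24 hnRNP proteins 8 rose and 4 fell (0.03), but with GC and length offsets these counts were 0 and 7, and 1 and 6. The kinase gene Clk1 (-0.56) and Srsf5 (-0.49) fell under both, whereas Srsf10 (0.43) was 0.13 and not called with the offsets. Of 15 nonsense-mediated decay genes 3 rose and 4 fell (median -0.06), and it was 3 and 1 without the U2AF1(WT) mouse 4 and 4 and 1 with the offsets.

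The largest single differences were mostly in predicted genes and multigene families. Of the 12 largest decreases, Hist1h4m (20.8 to 37.4 against 0.431 to 0.610 CPM, -5.68) and Ifi202b (3.05 to 7.89 against 0.0710 to 0.263 CPM, -4.68) belong to families with near-identical members, and Lipg (-3.95) encodes endothelial lipase. Of the 12 largest increases, Lars2, the mitochondrial leucyl-tRNA synthetase, had 74.6, 38.6, 116, 176 and 87.7 CPM in U2AF1(WT) mice, against 1110, 520, 3170, 2620 and 1680 CPM in U2AF1(S34F) mice (4.21, edgeR FDR=0.00137), with a wide spread, and its difference under sudemycin D6 (2.54) was not called. Fah, the last enzyme of tyrosine breakdown, had 2.98, 3.83, 1.79, 2.15 and 1.44 against 11.7, 9.59, 13.1, 24.0 and 17.6 CPM (2.62, edgeR FDR=0.000214). Dmc1, a meiotic recombinase, rose by 2.18 on the log2 scale.

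Called genes were spread over the autosomes, from 34.6% of tested genes on chromosome 9 to 42.8% on chromosome 13. Runs of at least 3 neighbouring genes with differences of 2-fold or more in one direction were found at 12 places. On chromosome 6, Klra8, Klra14, Klra9 and Klra7 were higher by 1.26 to 1.76 on the log2 scale, and Clec4a1, Clec4a3 and Clec4a4 had log2 fold changes from -1.44 to -1.08. On chromosome 16, 2 runs of stefin genes were higher, and on chromosome 11 the neighbouring cytokine genes Osm and Lif were lower. On chromosome 12, 3 runs in the immunoglobulin heavy chain region were lower.

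Splicing and expression calls were compared by gene. Of 904 genes with a called splicing event that were tested for expression, 406 were called (44.9%), 224 higher and 182 lower, against 44.5% of the 8843 genes with a tested event.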

How the data were processed

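Bone marrow RNA of 20 mice was sequenced with stranded total RNA libraries after depletion of ribosomal RNA, and 10 vehicle-treated mice, 5 of each genotype, were compared. Per the methods of the study, the authors used TopHat2 for alignment (genome mm9, which is NCBI build 37), and the deposited values are raw read counts per gene and raw read counts per splice junction for each mouse. The program and strand setting of gene counting are not given in the sources used here, so reads of overlapping and antisense genes may be shared.

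Of 37620 genes in the count table, 34551 were autosomal, and 14265 passed edgeR's filter on low counts. Genes were tested with edgeR 4.0.16 (TMM normalization, robust quasi-likelihood test, prior count 2, Benjamini-Hochberg FDR<10%), fitted on all genes of the 10 mice, and CPM were computed with TMM-scaled library sizes. From 554616 junctions, 49995 cassette exon events, 3098 pairs of 3′ sites, 1699 pairs of 5′ sites and 628 mutually exclusive pairs were built on the annotation (GENCODE M1 exons). An event was tested when its junction counts averaged at least 10 reads a mouse, with edgeR on junction counts, a coefficient for each mouse, isoform, and isoform by genotype, and a dispersion of 0. A call needed FDR<10% and |ΔΨ|>1%. For cassette exons Ψ was half-weighted inclusion reads over their sum with skipping reads, for alternative sites it was the share of the longer exon, and for mutually exclusive exons it was the share of the exon that comes first in the transcript. ΔΨ is U2AF1(S34F) minus U2AF1(WT). DESeq2 1.42.0 and limma 3.58.1 (R 4.3.3) served as alternatives, beside other filters, thresholds, size factors, an estimated dispersion, offsets for GC content and length, and leaving out each mouse. Both tests were tried on simulated counts with known changes. Libraries were deeper in the median in U2AF1(S34F) mice, and counts of a few reads limit precision.

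The named genes were U2af1 and the genes of its list, the 12 largest differences in each direction among calls whose groups did not overlap (mean of at least 1 CPM in the higher group), and from each list up to 4 called genes with the largest differences or else its most highly expressed gene. The named events were the 8 largest called cassette exons in each direction without overlap and with a mean of at least 20 reads a mouse, 1 per gene, the 4 largest of each other type, and up to 3 in each list. The mice, the lists, the dispersion of 0 and the tests were chosen with earlier results of these data known. Members given as not called were named for contrast after their values were seen.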

Additional observations from a re-analysis of the deposited data

Results flagged for a closer look

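Among 540 groups of 5 mice tested, 1 mouse stood apart from the other 4 in 39 (7.22%). Chance alone gives about 1 in 20 for normally distributed values, which bounded Ψ values need not be. Where the other 4 mice all had a Ψ of 1.0, any lower value was flagged, however close. The U2AF1(WT) mouse 2 was the flagged mouse in 14 of the 39 groups, the most of any mouse. It was the highest U2AF1(WT) mouse in Ctsg (360.0 CPM), Gbp2 (33.1), Canx (516.0) and the stefin group (Stfa3 22.1, Stfa2 45.2, BC100530 112.0, Gm1975 9.39), and stood apart in Lipg (26.4), Irf4 (11) and Ccl2 (3.2). Its Ψ stood apart in Dzip3 (0.941), Psmd14 (0.992 and 0.996 at 2 exons) and Mll5 (0.912).

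The U2AF1(S34F) mouse 7 lay apart in 9 groups. The stefin group was the highest in it (Stfa3 391.0 CPM, Stfa2 628.0, BC100530 1080.0, Gm1975 134.0), and it also stood apart in Stfa1 (2.51), Clk3 (52.8), Nusap1 (140.0), Top2a (1030.0) and the Ψ of Bank1 (0.903).

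The remaining values were spread over the other mice. They were Atf3 (99.1 CPM) and the Ψ of Proca1 (0.956) in the U2AF1(WT) mouse 1, the Ψ of Pecam1 (0.93) and of Tyms (0.996) in mouse 3, Zfp934 (0.126 CPM), Srsf10 (68.0 CPM) and the Ψ of Per1 (0.757) in mouse 4, and Pcbp2 (165.0 CPM) in mouse 5. Among the U2AF1(S34F) mice they were Cxcl2 (24.8 CPM) and Osm (108.0 CPM) in mouse 1, Tyms (72.3 CPM) and the Ψ of Aen (0.94) in mouse 3, Cst7 (27.6 CPM), Ifit3 (16.5 CPM) and the Ψ of Tm7sf2 (0.481) in mouse 5, and the Ψ of 1500002O20Rik (0.998) in mouse 11.

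The genotype difference of Atf3 was -3.85 on the log2 scale under vehicle and -1.46 under sudemycin D6, and the interaction of 2.38 was called by edgeR (FDR=0.000994) in a fit of all 20 mice.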

How the results depend on the processing

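The counts of splicing events depended most on the test. With limma on Ψ the counts were 211 cassette exons, 1 pair of 5′ sites and 16 mutually exclusive pairs, and with a dispersion estimated by edgeR they were 0 (2070 at an unadjusted p under 0.05), 10 pairs of 3′ sites, 1 and 8. With a change of more than 10% required, 319 cassette exons, 31 pairs of 3′ sites and 20 mutually exclusive pairs were left. The share of thymine was 83.2% in exons included less when limma made the calls, and in exons included more it was 8.97% by limma and 3.73% with a change of more than 10%. Leaving out 1 mouse gave 863 to 1184 cassette exons, 43 to 66, 6 to 13 and 17 to 40 events of the other types, and 4629 to 6670 genes. The count of genes was 736 with a log2 fold change of at least 1, and 5988 with DESeq2. With GC content and length offsets, chosen after seeing the data, list medians were -0.14 (SR and Tra2 factors), 0.09 (nonsense-mediated decay), 0.14 (secondary granule), -0.20 (circadian clock), -0.10 (p53 response), -0.07 (integrated stress response), 0.06 (myeloid neoplasm genes) and 0.01 (Schlafen family), and Ddx39b (0.16), Dhx34 (0.07), Tcf3 (0.07) and B2m (-0.04) changed sign. Of 192 named genes, 31 lost their call with these offsets and 0 with DESeq2. Leaving out 1 mouse moved list medians to 0.10 to 0.14 (U2AF family), -0.06 to 0.01 (nonsense-mediated decay), -0.01 to 0.25 (stroma and endothelium), -0.23 to -0.12 (Toll-like receptors), -0.08 to 0.03 (p53 response), 0.02 to 0.21 (heat shock chaperones), -0.07 to -0.01 (myeloid neoplasm genes) and 0.02 to 0.15 (reported human targets).

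The numbers 1, 3 and 5 occur in both groups, and the labels do not say whether they mark anything shared. Deviations of same-numbered mice correlated at 0.087, 0.146 and -0.054. These 3 correlations cannot show whether the mice share anything beyond a number. With a replicate block over these 6 mice, 4464 genes, 80 cassette exons, 17 pairs of 3′ sites, 5 pairs of 5′ sites and 12 mutually exclusive pairs were called, and the same 6 mice without the block gave 4986 genes. Of these 3 numbers, only the mice numbered 3 correlated best with each other.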

Other observations

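Some gene groups outside the comparisons above also differed. Toll-like receptor genes fell in 7 of 19 cases and rose in 2 (median log2 fold change -0.21), or 5 and 0 with GC content and length offsets, with Tlr9, the receptor for unmethylated CpG DNA, at -1.83 and Tlr2, which senses bacterial lipoproteins, at -0.85. Of 31 lineage transcription factors, 7 rose and 10 fell (median -0.18), with Cebpb at 118, 102, 134, 174 and 98.0 CPM in U2AF1(WT) mice and 67.4, 50.4, 66.2, 42.5 and 62.6 CPM in U2AF1(S34F) mice (-1.11, edgeR FDR=0.000762). Every U2AF1(S34F) mouse was below every U2AF1(WT) mouse. Runx2 had -0.89 and Erg 0.48.

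Of 31 genes mutated in myeloid neoplasms, 6 rose and 8 fell (median -0.05), or 8 and 7 with the offsets. Dnmt3a fell by 0.55 on the log2 scale, but was at -0.16 with the offsets. Npm1, a nucleolar chaperone, rose by 0.51 but was at 0.17 and not called with them. Of 20 genes of MHC class I and antigen processing, 3 rose and 5 fell, or 1 and 2 with the offsets, 6 and 7 without the U2AF1(WT) mouse 2, 1 and 3 without mouse 4 and 2 and 3 without the U2AF1(S34F) mouse 11. The 12 genes named in earlier work on human cells with this mutation had 3 higher and 1 lower, or 1 and 1 without the U2AF1(WT) mouse 1 or 4 or the U2AF1(S34F) mouse 1. The counts were 1 higher and 3 lower of 13 for heme synthesis (3 and 2 with the offsets, 1 and 1 without the U2AF1(WT) mouse 1, 3 and 4 without mouse 2), 1 and 3 of 17 for dendritic cells (1 and 6 without the U2AF1(S34F) mouse 3), 2 and 2 of 15 for plasma cells, 3 and 3 of 21 for stroma and endothelium, 3 and 3 of 12 for the SF3 complexes (2 and 1 with the offsets), and 2 and 0 of 9 for the Schlafen family (0 and 0 with the offsets, 1 and 0 without the U2AF1(WT) mouse 3 or 4 or the U2AF1(S34F) mouse 7).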
